A study of Homo sapiens with 14 samples.

Results

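Long intergenic non-coding RNAs that carry only a LINC number in place of a descriptive gene name were followed in U251MG, an established human glioblastoma cell line. All 876 rows with such a symbol, of 24489 genes in each of 2 deposited expression tables, were considered, and 150 were kept because their mean reached 1 TPM (transcripts per 1000000) in at least 1 of 4 groups. Members were thus chosen by their measured group means, and the levels of the 150 members are given as a description. Of the 876 rows, 431 were listed at 0 in all 12 RNA-seq libraries.

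Radioresistant cells came from a course of X-rays that summed to 60 Gy, 2 Gy at each of 30 fractions, and stood beside Control cells of the same line. Radioresistant cells with a short hairpin RNA against the DNA sensor gene IFI16 (shIFI16) stood beside radioresistant cells with the hairpin shNC, so both hairpin groups had been irradiated in the same way. All groups are labelled as wild-type U251MG, and each held 3 RNA-seq libraries. ATAC-seq, which maps open chromatin with the Tn5 transposase, was done on 1 radioresistant and 1 control library. Only 1 hairpin against IFI16 is named, so an effect of IFI16 loss cannot be told apart from an off-target effect or from other differences between the hairpin cells. The labels do not say whether replicates were separate cultures, so p-values measure the spread between libraries, which may be technical. Columns of the tables carry short codes, and their groups were read from those codes. IFI16 averaged 267 TPM in Radioresistant libraries and 63.7 TPM in Control libraries, and 7.43 TPM in shIFI16 libraries against 131 TPM in shNC libraries. The low IFI16 in shIFI16 columns goes with that reading of the codes, but Radioresistant and Control columns have no check of this kind.

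LINC RNAs are transcribed by RNA polymerase II, are usually spliced and polyadenylated, and lie between protein-coding genes. Some act on a neighbouring gene from their own locus, some bind proteins or chromatin elsewhere in the cell, some are processed into small RNAs, and a few turned out to encode very small proteins. Many are restricted to 1 tissue or to tumour cells, and in glioma several are used as markers of cell state. The library kit selects messenger RNA, so RNAs without a poly(A) tail are poorly covered.

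By RefSeq, 141 of the 150 members are long non-coding RNAs, 6 are now protein-coding genes (BRD3OS, MTLN, SMIM26, SPAAR, SMIM30 and NBDY) and 1, LINC01296, is a transcribed pseudogene. LINC00889 and LINC01279 shared the record of another row, FGF13 and CCDC80, and were given no position. All 6 of these protein-coding genes are counted below under the LINC symbols the files use. Spans ran over a median of 12003 bases, with the shortest at 437 bases (LINC01023) and the longest at 196324 bases (LINC01605). For 25 members the span overlaps a protein-coding gene. Whether the authors' counting used strand is not given in the sources used here, so values of members that overlap another gene are uncertain.

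Of the 150 members, 85 reached 1 TPM in all 4 group means, 20 in 3, 13 in 2 and 32 in 1 group only. That single group was Control for 21 members, Radioresistant for 5 (LINC00106, LINC00235, LINC00417, LINC01204 and LINC01315), shIFI16 for 2 and shNC for 4. Such members entered the set only through the group in which they were high. Just inside the limit lay 8 members, with highest group means between 1.03 TPM (LINC00506) and 1.09 TPM (LINC01530). Just outside lay 6 LINC RNAs, between 0.923 TPM (LINC01372) and 0.996 TPM (LINC01111).

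Members together made up 0.139 to 0.148% of all TPM in Radioresistant libraries and 0.190 to 0.215% in Control libraries, ranges that do not overlap. Hairpin libraries lay closer to each other, at 0.149 to 0.153% with shIFI16 and 0.152 to 0.156% with shNC. A few RNAs carried much of this signal: the 5 highest members held 39.6 to 44.4% of the members' TPM in each library, while the median member stood between 2.21 and 3.37 TPM. In bulk RNA, fewer cells that make a transcript and less of it per cell cannot be told apart.

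The strongest RNA in the 3 Radioresistant libraries was LINC00152 (CYTOR), which is raised in many tumours, glioblastoma among them. It had 185, 167 and 214 TPM in Radioresistant libraries, against 98.8, 97.6 and 128 TPM in Control libraries. Every Radioresistant library lay above every Control library. On the log2(TPM + 1) scale the difference was 0.80 with a standard error (SE) of 0.14, and the limma adjusted p was 0.001. After knockdown its level was 176, 192 and 211 TPM with shIFI16 and 164, 189 and 183 TPM with shNC. These groups overlapped, and the limma adjusted p was 0.282.

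LINC00657 (NORAD), which binds Pumilio proteins and helps keep the chromosome number stable, went the other way in irradiated cells. Its level was 138, 144 and 124 TPM in Radioresistant libraries and 238, 225 and 194 TPM in Control libraries. All 3 Radioresistant values lay below all 3 Control values, with a log2 difference of -0.69 (SE 0.12, limma adjusted p = 0.000845). In hairpin cells it averaged 169 ± 20.4 TPM with shIFI16 and 159.8 ± 10.6 TPM with shNC (SD, n = 3 each), and the call was not made (limma adjusted p = 0.518).

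LINC01578 (CHASERR), which lies upstream of the chromatin remodeller gene CHD2 and restrains it in cis, was also lower in radioresistant cells. Radioresistant libraries had 50.6, 50.5 and 53.5 TPM, against 114, 92.0 and 98.2 TPM in Control libraries. The groups were far apart, at -0.96 log2 (SE 0.12, limma adjusted p = 9.74e-05). CHD2 itself, whose start lies 17028 bases away on the same strand, was lower too, at -0.35 log2 (limma adjusted p = 0.0437). After knockdown CHD2 was higher by 0.34 log2 (limma adjusted p = 0.0144), while LINC01578 stood at -0.16 log2 (limma adjusted p = 0.278).

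**Figure D1:**
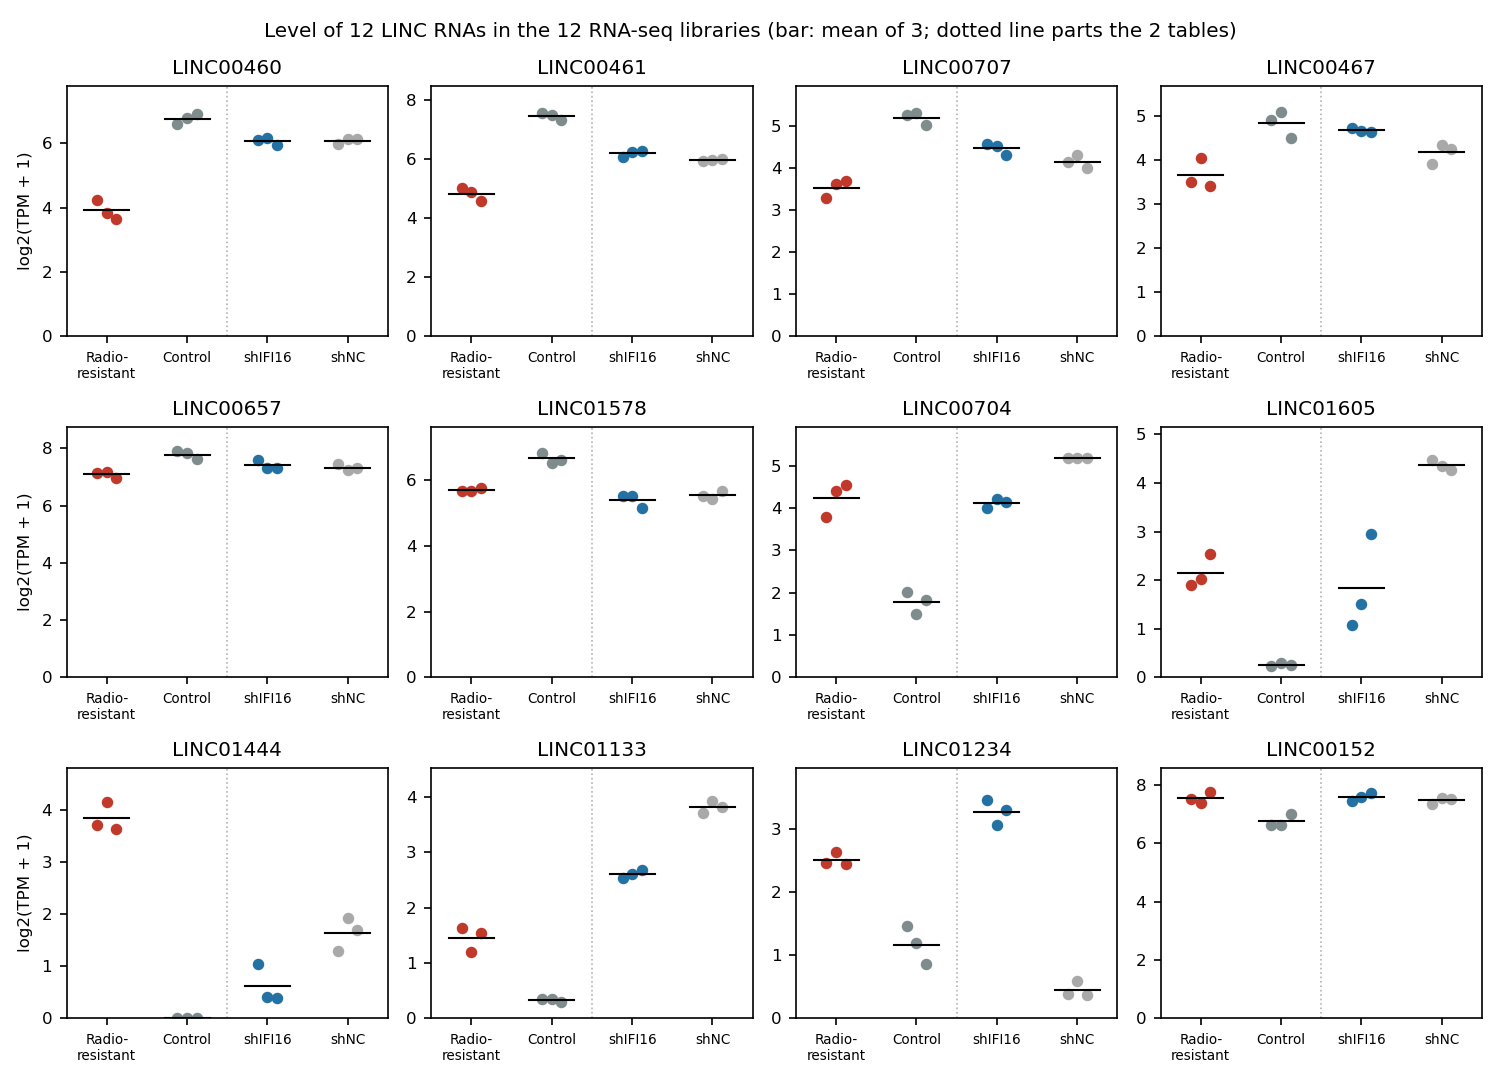
Level of 12 members in each RNA-seq library, as log2(TPM + 1), with a black bar at the mean of 3 libraries; groups stand in the order Radioresistant, Control, shIFI16 and shNC, and a dotted line parts the separately normalized tables. LINC00460 and LINC00461 lie lowest in the Radioresistant libraries, LINC01444 is listed at 0 in all 3 Control libraries, and LINC01234 is high with shIFI16 and low with shNC.

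Across the set, 126 of the 150 members passed the low-value filter of the comparison between Radioresistant and Control cells (at least 1 TPM in at least 3 of 6 libraries), and 24 did not. Of the 126, 22 (17.5%) were higher and 45 (35.7%) were lower at a limma adjusted p under 0.05, with the p-values adjusted over all 13127 genes tested. Among all genes tested 16.9% were higher and 27.0% were lower, or 43.9% called either way, so the share of higher members was near the background and the share of lower members was above it. All 3 Radioresistant libraries lay above all 3 Control libraries for 25 members (19.8%, against 21.5% of all genes tested) and below them for 52 (41.3%, against 31.7%). The median difference was -0.25 log2 over the tested members and -0.11 log2 over all genes tested.

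The direction of the background depended on scaling. Median-ratio scaling moved the median of all genes to 0.01 log2 and gave 2976 genes higher and 2926 lower, against 2220 higher and 3542 lower with the TPM as deposited. Quantile normalization gave 2765 higher and 3105 lower. Under either scaling 25 members were higher and 39 lower. A difference of at least 1 log2 unit in size was seen in 25 members, or 19.8% of those tested, against 11.6% of all genes tested; 11 were called higher and 14 lower. For 11 of the 22 higher members the Control mean was under 1 TPM, and for 9 of the 45 lower members the Radioresistant mean was under 1 TPM, so these passed the filter through the group in which they were high.

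**Figure D2:**
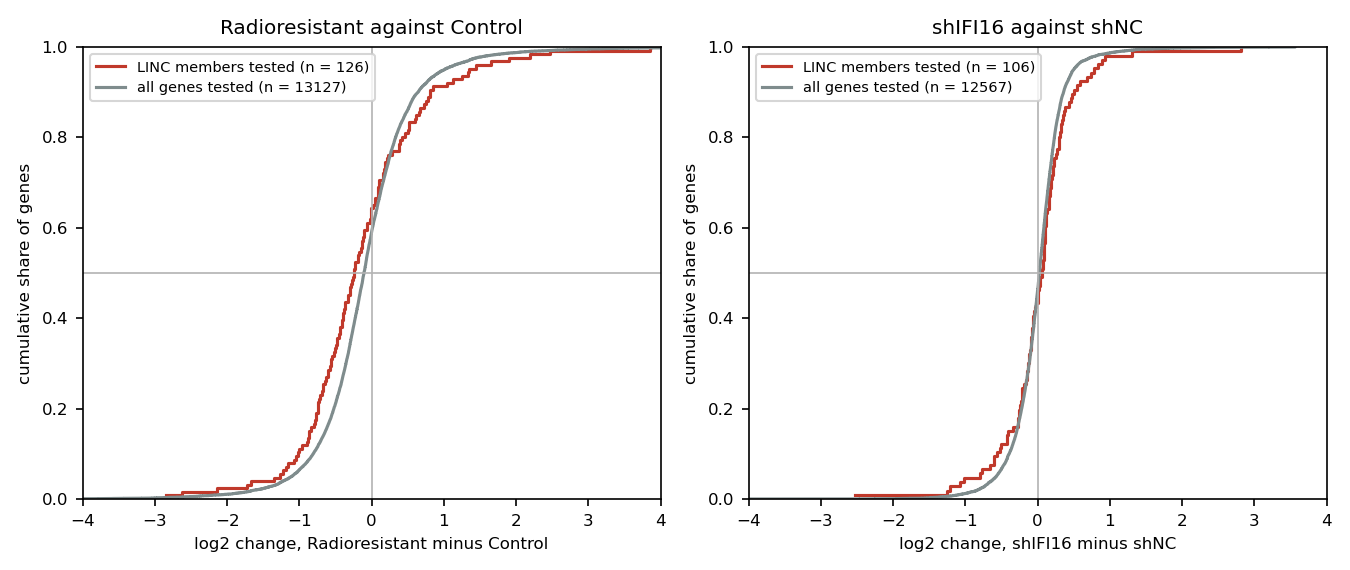
Cumulative share of genes by log2 difference, for members (red) and all genes tested (grey); Radioresistant minus Control on the left, shIFI16 minus shNC on the right. On the left the members' median is -0.25 and that of all genes -0.11; on the right the medians are 0.06 and 0.03.

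LINC00461 (MIR9-2HG) is a brain-expressed RNA on chr5:88538266-88691041 (minus strand, RefSeq GRCh38.p14) whose locus holds the microRNA gene MIR9-2, at chr5:88666853-88666939 on the same strand. miR-9 is a conserved microRNA of neural progenitors. Its mature forms are shown because LINC00461 made one of the widest moves of the set; sequences are from RefSeq, 5′ to 3′, and capitals mark the seed (bases 2 to 8).
hsa-miR-9-5p: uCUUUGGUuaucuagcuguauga
hsa-miR-9-3p: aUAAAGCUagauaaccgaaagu
The seeds of the arms differ, and the microRNAs themselves were not measured in these libraries.

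LINC00461 had 31.3, 29.0 and 23.1 TPM in Radioresistant libraries, against 189, 179 and 161 TPM in Control libraries. No value of either group came near the other group, and the difference was -2.62 log2 (SE 0.13, limma adjusted p = 1.95e-07). In hairpin cells the levels were 67.4, 74.7 and 76.7 TPM with shIFI16 and 60.8, 62.5 and 64.1 TPM with shNC. All shIFI16 libraries were above the shNC libraries by a small margin, 0.22 log2 (SE 0.07, limma adjusted p = 0.0312). That call was lost without shIFI16 replicate 2 (adjusted p = 0.127) or 3 (0.0827), without shNC replicate 1 (0.0958), 2 (0.0771) or 3 (0.0562), and with median-ratio scaling (0.101) in the limma fit.

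The member with the largest fall was LINC00460, an RNA raised in several carcinomas, at chr13:106376564-106378595 (plus strand). It had 18, 13.4 and 11.7 TPM in Radioresistant libraries and 96.1, 109.6 and 119 TPM in Control libraries. This is a fall of 2.85 log2 units (SE 0.16, limma adjusted p = 4.04e-07). EFNB2, a membrane ligand of Eph receptors and the nearest listed coding gene with its start 159098 bases away, was lower by 1.97 log2 units (log2 difference -1.97, limma adjusted p = 2.05e-07). After knockdown LINC00460 showed no such difference, with 67.1, 70.3 and 60.9 TPM in shIFI16 libraries and 61.5, 69.9 and 69.8 TPM in shNC libraries (-0.02 log2, limma adjusted p = 0.865).

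LINC00706 and LINC00707 lie 417 bases apart on chromosome 10. LINC00706 had 1.47, 2.16 and 2.07 TPM in Radioresistant libraries against 11, 12.6 and 11.8 TPM in Control libraries. LINC00707, described as raised in several tumours, had 8.86, 11.3 and 11.9 TPM in Radioresistant libraries against 37.6, 38.9 and 31.7 TPM in Control libraries. Both were lower, by -2.15 log2 (SE 0.15, limma adjusted p = 2.44e-06) and -1.67 log2 (SE 0.15, limma adjusted p = 1.11e-05). PRKCQ, the protein kinase C theta gene 198534 bases from LINC00706, was higher by 0.94 log2 (limma adjusted p = 0.00061).

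Further members with large falls spanned several described roles. LINC01551 had 11.5, 15 and 13.6 TPM in Radioresistant libraries and 48.9, 50 and 40.5 TPM in Control libraries (-1.73 log2, limma adjusted p = 6.64e-06). LINC00473, a target of the cyclic-AMP factor CREB, had 1.30, 0.564 and 0.633 TPM in Radioresistant libraries and 4.81, 3.37 and 2.87 TPM in Control libraries (-1.35 log2, limma adjusted p = 0.000466; -2.07 log2 with a pseudocount of 0.1). LINC00632, whose locus gives rise to the circular RNA CDR1as, had 3.38, 3.30 and 2.77 TPM in Radioresistant libraries and 6.94, 11.1 and 9.40 TPM in Control libraries (-1.27 log2, limma adjusted p = 0.00025). In each of these 3 RNAs the groups did not overlap; the circular form was not measured. LINC00920, LINC00674 and LINC01119 fell too, at -1.23, -1.07 and -1.05 log2. LINC01268 (MROCKI), which lies near the actin-regulator gene MARCKS, was lower by -1.16 log2 (SE 0.19, limma adjusted p = 0.000745), and MARCKS, 16002 bases away, by -1.20 log2 (limma adjusted p = 1.4e-05).

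The 6 measured members listed for a described small protein are not the same 6 that RefSeq calls protein-coding. They hold LINC00467 in place of LINC00094 (BRD3OS), which was lower in Radioresistant cells (-0.74 log2, limma adjusted p = 0.00139). Of the 6 listed, 5 were lower in Radioresistant cells and none was higher, with a median of -0.59 log2. Among all genes tested 27.0% were lower, and among tested members 35.7%. LINC00467, a source of a mitochondrial peptide described in colon cancer, had 10.3, 15.4 and 9.62 TPM in Radioresistant libraries against 29.0, 32.8 and 21.7 TPM in Control libraries (-1.18 log2, SE 0.20, limma adjusted p = 0.000795). LINC00961 (SPAAR), whose small protein sits on the lysosome and restrains amino-acid signalling to mTORC1, had 9.24, 9.78 and 7.49 TPM in Radioresistant libraries against 20.4, 18.4 and 17.6 TPM in Control libraries (-1.01 log2, limma adjusted p = 0.000238). Both were separated without overlap. LINC01420 (NBDY), a small protein of the mRNA decapping complex, had 119, 148 and 122 TPM in Radioresistant libraries and 244, 211 and 149 TPM in Control libraries (-0.61 log2, limma adjusted p = 0.0151). Its call was lost without Radioresistant replicate 1 (limma adjusted p = 0.0524) or 3 (0.0681) and without Control replicate 2 (0.0536). LINC00493 (SMIM26, mitochondrial) and LINC00998 (SMIM30, of membranes) were lower by -0.56 log2 and -0.55 log2. LINC00116 (MTLN), which supports mitochondrial respiration, averaged 22.4 ± 3.21 TPM in Radioresistant libraries and 22.3 ± 1.16 TPM in Control libraries (SD, n = 3 each), with a limma adjusted p of 0.989.

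Of 25 rows listed for a described role in tumours, 21 were tested, 5 were higher and 10 were lower, with a median of -0.41 log2. Among all genes tested 16.9% were higher and 27.0% lower, and among tested members 17.5% and 35.7%. The higher ones were LINC00152, LINC00857, LINC00941, LINC01133 and LINC01234. LINC00857 had 5.88, 7.31 and 6.11 TPM in Radioresistant libraries and 5.11, 4.37 and 3.32 TPM in Control libraries, at 0.51 log2 (limma adjusted p = 0.031). Its call was lost in every limma fit that left out a library except that without Control replicate 1: the adjusted p was 0.053, 0.11 and 0.0656 without Radioresistant replicates 1, 2 and 3, and 0.0741 and 0.0621 without Control replicates 2 and 3. Among the lower ones, LINC00673, which has been tied to turnover of the phosphatase PTPN11, was at -0.89 log2 (limma adjusted p = 0.000339), LINC00963 at -0.86 log2 (limma adjusted p = 0.00288) and LINC00641 at -0.75 log2 (limma adjusted p = 0.00598).

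LINC01444 and LINC01443 overlap on opposite strands of chromosome 18, and both rose in Radioresistant cells. LINC01444 had 12.3, 17.0 and 11.5 TPM in Radioresistant libraries and was listed at 0 in all 3 Control libraries. LINC01443 had 3.95, 4.41 and 2.88 TPM in Radioresistant libraries, against 0, 0.0999 and 0 TPM in Control libraries. LINC00417 was likewise at 2.31, 1.96 and 2.16 TPM in Radioresistant libraries and listed at 0 in all 3 Control libraries. Limma adjusted p-values were 7.82e-08, 4.46e-06 and 1.1e-05; no fold is given against a group at 0. LINC00417 was also listed at 0 in all 6 hairpin libraries.

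LINC00704 (MANCR), a mitosis-associated RNA described in breast cancer, stood at 12.9, 20.1 and 22.6 TPM in Radioresistant libraries, against 3.08, 1.84 and 2.58 TPM in Control libraries. The lowest Radioresistant value was above the highest Control value, and the difference was 2.46 log2 (SE 0.21, limma adjusted p = 1.01e-05). LINC01605 rose as well, with 2.74, 3.08 and 4.80 TPM in Radioresistant libraries against 0.172, 0.231 and 0.191 TPM in Control libraries (1.90 log2, SE 0.18, limma adjusted p = 2.31e-05). LINC01234, described as raised in several carcinomas, had 4.52, 5.22 and 4.41 TPM in Radioresistant libraries against 1.74, 1.28 and 0.813 TPM in Control libraries (1.34 log2, SE 0.18, limma adjusted p = 0.000186). All 3 were separated without overlap. With a pseudocount of 0.1 in place of 1, the LINC01605 difference was 3.57 log2.

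Rises were also seen for LINC01399 (1.44 log2), LINC01561 (1.33 log2), LINC00899 (1.25 log2), LINC01133 (1.12 log2), LINC01411 (1.05 log2), LINC00601 (0.86 log2) and LINC01204 (0.78 log2). With a pseudocount of 0.1 the values were 2.68 log2 for LINC01399, 3.35 log2 for LINC01561, 2.36 log2 for LINC01133, 1.71 log2 for LINC01411 and 1.58 log2 for LINC01204. LINC01296 (DUXAP9) rose by 0.81 log2, but as a pseudogene with near-identical copies its reads can be split between loci. LINC01561 moved with its neighbour PLPP4, a lipid phosphatase gene 140722 bases away, which was higher by 2.17 log2 (limma adjusted p = 2.05e-06). Of the 67 members called in this comparison, 51 kept the call in every fit that left out a library and in which they were tested, and 16 lost it in at least 1. The 16 were LINC00052, LINC00346, LINC00431, LINC00839, LINC00857, LINC00893, LINC00894, LINC00938, LINC01000, LINC01116, LINC01137, LINC01270, LINC01315, LINC01420, LINC01518 and LINC01534. For 12 of the 67 (LINC00417, LINC00894, LINC00910, LINC01133, LINC01204, LINC01410, LINC01443, LINC01444, LINC01518, LINC01561, LINC01590 and LINC01605) 3 of the 6 such fits gave no test, because the filter then left them out. For LINC00417, LINC01133, LINC01443, LINC01444 and LINC01605 those were the fits without a Radioresistant library. Their kept calls were thus not tried against the loss of a library of the group in which they were high.

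**Figure D3:**
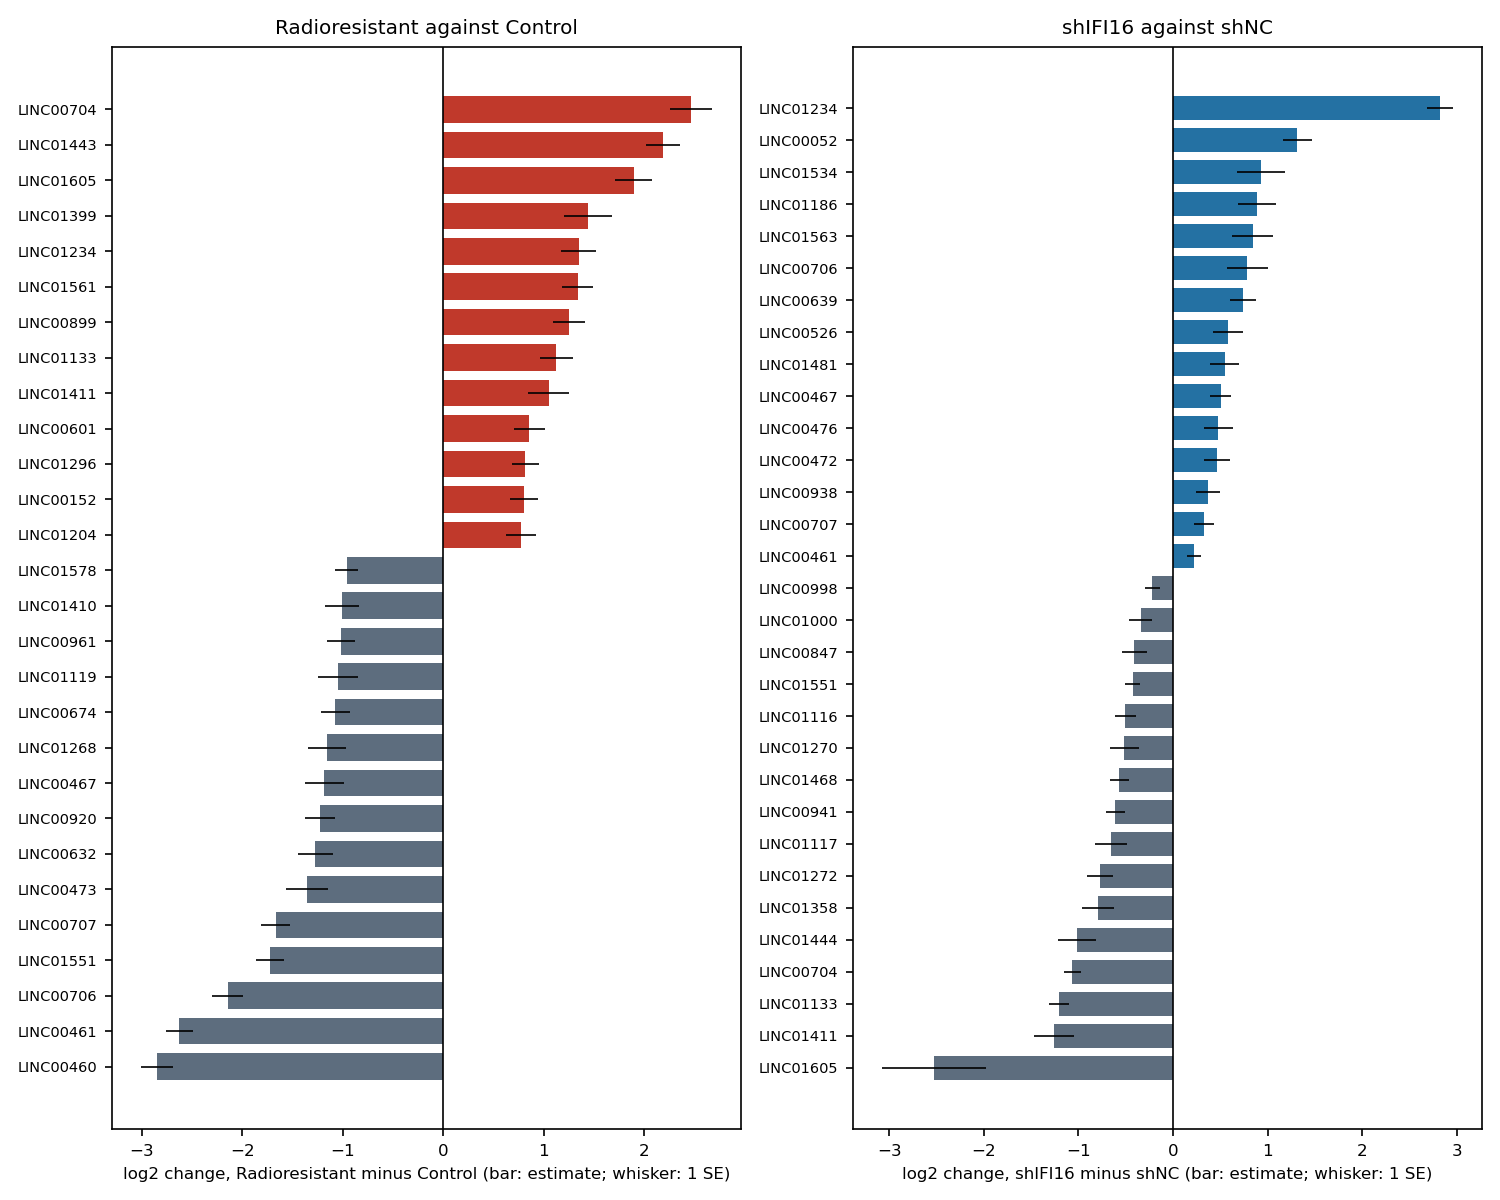
Log2 difference of called members with 1 SE as whiskers; on the left the 15 largest rises and 15 largest falls in Radioresistant against Control cells, without LINC01444 and LINC00417 (listed at 0 in Control), on the right all 31 calls in shIFI16 against shNC cells. LINC00704 (2.46) and LINC00460 (-2.85) bound the left panel, LINC01234 (2.82) and LINC01605 (-2.53) the right one, where LINC01605 has the widest error.

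Knockdown of IFI16 in radioresistant cells was followed by a balanced set of smaller moves. Of the 150 members, 106 were tested and 44 were not. At a limma adjusted p under 0.05, 15 members (14.2%) were higher with shIFI16 than with shNC and 16 (15.1%) were lower, against 16.6% higher and 16.3% lower among all 12567 genes tested (32.9% called either way). Both shares were near the background. All 3 shIFI16 libraries lay above all 3 shNC libraries for 24 members (22.6%, against 23.4% of all genes tested) and below them for 21 (19.8%, against 21.4%). A difference of at least 1 log2 unit in size was seen in 7 members, 6.6% of those tested, against 2.6% of all genes tested, and the medians were 0.06 log2 for members and 0.03 log2 for all genes.

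LINC01234 made the largest rise after knockdown. It had 9.91, 7.37 and 8.78 TPM with shIFI16, against 0.302, 0.504 and 0.293 TPM with shNC. No shNC library reached 1 TPM and the lowest shIFI16 library had 7.37 TPM, giving 2.82 log2 (SE 0.14, limma adjusted p = 8.53e-10), or 4.25 log2 with a pseudocount of 0.1. RBM19, a ribosome-biogenesis gene whose start lies 192642 bases away on the same strand, was higher in Radioresistant than in Control cells by 0.75 log2 (limma adjusted p = 0.000572) and stood at 0.18 log2 after knockdown (limma adjusted p = 0.173).

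LINC00052 had 4.48, 4.53 and 2.91 TPM with shIFI16 and 0.969, 1 and 0.967 TPM with shNC, a difference of 1.31 log2 (SE 0.15, limma adjusted p = 7.58e-06). LINC01186 (0.89 log2), LINC01563 (0.84 log2) and LINC00639 (0.74 log2) also rose; with a pseudocount of 0.1 LINC01186 was at 1.67 log2 and LINC00639 at 1.29 log2. LINC00467, the small-peptide source that was lower in Radioresistant cells, had 25.6, 24.1 and 23.9 TPM with shIFI16 and 14.1, 19.3 and 18 TPM with shNC. Its rise was 0.50 log2 (SE 0.11, limma adjusted p = 0.00226). LINC00472, described as a tumour-suppressing RNA of breast cancer, rose by 0.46 log2 (limma adjusted p = 0.015, and 0.0503 without shNC replicate 1), and its neighbour OGFRL1 by 0.83 log2 (limma adjusted p = 1.27e-05). LINC01534 (ZNF567-DT), which starts 163 bases from the zinc-finger gene ZNF567 on the opposite strand, rose by 0.93 log2 (SE 0.25, limma adjusted p = 0.0234) and ZNF567 by 0.68 log2 (limma adjusted p = 0.000577). The LINC01534 call was lost without shIFI16 replicate 1 (limma adjusted p = 0.177) or 2 (0.0723) and without shNC replicate 1 (0.114).

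After knockdown, 4 of the wider falls were in RNAs that had been higher in Radioresistant cells. LINC01133, described in several carcinomas, had 4.79, 5.12 and 5.40 TPM with shIFI16 against 12.1, 14.2 and 13.1 TPM with shNC (-1.21 log2, SE 0.11, limma adjusted p = 4.84e-07). LINC00704 had 15, 17.7 and 16.7 TPM with shIFI16 against 35.5, 35.7 and 35.4 TPM with shNC (-1.07 log2, SE 0.09, limma adjusted p = 2.3e-07). LINC01411 had 1.43, 0.724 and 0.588 TPM with shIFI16 against 4.94, 2.40 and 3.47 TPM with shNC (-1.25 log2, SE 0.21, limma adjusted p = 0.000696). In all 3 RNAs the groups were apart, and with a pseudocount of 0.1 LINC01411 was at -1.90 log2 and LINC01444 at -1.88 log2. LINC01444 was at 1.07, 0.333 and 0.318 TPM with shIFI16 and at 1.44, 2.82 and 2.23 TPM with shNC (-1.02 log2, SE 0.20, limma adjusted p = 0.00164). Its overlapping partner LINC01443 was not tested there; it was listed at 0, 0.053 and 0 TPM with shIFI16 and had 1.47, 2.23 and 0.814 TPM with shNC.

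LINC01605 fell furthest but unevenly. It had 1.12, 1.83 and 6.67 TPM with shIFI16, against 21.2, 19.5 and 18.4 TPM with shNC. The third shIFI16 library lay well above the other 2 of its group, though below every shNC library. The difference was -2.53 log2 (SE 0.55, limma adjusted p = 0.032). Without shIFI16 replicate 3 it was -3.08 log2 (limma adjusted p = 6.65e-12). Without any other library the call was lost, with limma adjusted p of 0.0714 and 0.114 without shIFI16 replicates 1 and 2, and 0.102, 0.0982 and 0.105 without shNC replicates 1, 2 and 3.

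Other falls after knockdown were smaller. LINC01468 (LNCAROD), known as an activator of the Wnt-inhibitor gene DKK1 from a nearby locus, had 19.5, 16 and 17 TPM with shIFI16 and 25.5, 25.4 and 28.2 TPM with shNC (-0.57 log2, SE 0.10, limma adjusted p = 0.000332). DKK1, 140991 bases away, was lower by -0.82 log2 (limma adjusted p = 3.12e-08). LINC01358 and its neighbour JUN, the AP-1 subunit gene, were lower by -0.79 log2 (limma adjusted p = 0.00221) and -0.68 log2 (limma adjusted p = 1.08e-06). LINC01272 (PELATON), known from monocytes, was lower by -0.77 log2 (limma adjusted p = 0.000453), LINC00941 by -0.61 log2 (limma adjusted p = 0.000254) and LINC01551 by -0.43 log2 (limma adjusted p = 0.000865). The immune markers AIF1 and CD3E were listed at 0 in all 12 libraries; the summed immune list ran from 14.1 to 17.8 TPM with shIFI16 and from 37.5 to 40.4 TPM with shNC. Nearly all of that sum was CD68, a lysosomal protein of macrophages and the only marker of the list that passed the filter, with means of 15.6 TPM with shIFI16 and 38.5 TPM with shNC, while CD14 averaged 0.455 TPM with shIFI16 and 0.176 TPM with shNC. The part of these markers in the LINC01272 result was not tested. With a pseudocount of 0.1, LINC01358 was at -1.40 log2 and LINC01272 at -1.17 log2. Of the 31 calls after knockdown, 14 were lost in at least 1 fit that left out a library. The other 17 were kept in each such fit that tested them. LINC00639 and LINC01234 were tested in only 3 of the 6, those without an shNC library.

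Radioresistance and knockdown are compared between tables that share no library. The shNC level of some members lay far from their Radioresistant level (values below), so calls in both are not read as a reversal or an extension. In both comparisons 102 members were tested. Of these, 20 (19.6%) were called in both comparisons, against 16.3% of the 12359 genes tested in both. Higher in Radioresistant and lower with shIFI16 were 6: LINC00704, LINC00941, LINC01133, LINC01411, LINC01444 and LINC01605. Lower in Radioresistant and higher with shIFI16 were 7: LINC00052, LINC00461, LINC00467, LINC00639, LINC00706, LINC00707 and LINC00938. Moving the same way were LINC01234 and LINC01534, higher in both, and LINC00998, LINC01000, LINC01116, LINC01270 and LINC01551, lower in both. The knockdown calls of LINC00998 and LINC01000 were marginal, at -0.22 log2 and -0.34 log2 (limma adjusted p = 0.0428 and 0.0412), with 0.227 without shNC replicate 2 and 0.143 without shIFI16 replicate 3. By direction, 5.88% of the 102 members were higher in Radioresistant and lower with shIFI16, against 4.42% of all genes, and 6.86% were lower in Radioresistant and higher with shIFI16, against 4.81%. Higher in both were 1.96% of members and 3.12% of all genes, and lower in both 4.90% and 3.97%, so none of these shares is read as particular to the members. The others comprised 35 called in Radioresistant cells only, 10 called after knockdown only and 37 called in neither.

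Within the 7 that were lower in Radioresistant and higher with shIFI16, several knockdown calls were marginal and were lost when a library was left out. LINC00706 (0.78 log2, limma adjusted p = 0.0179) was lost without shIFI16 replicate 2 (0.0597) or 3 (0.0734). LINC00707 (0.33 log2, limma adjusted p = 0.0264) was lost without shIFI16 replicate 2 (0.0993) or shNC replicate 1 (0.0551) or 3 (0.127). LINC00938 (0.37 log2, limma adjusted p = 0.0328) was lost without shIFI16 replicate 2 (0.0902) or shNC replicate 2 (0.137) or 3 (0.144). LINC00461 lost its call without shIFI16 replicate 2 or 3 or any 1 shNC library. The differences moved little in those fits, at 0.70 and 0.73 log2 for LINC00706, 0.25 to 0.32 log2 for LINC00707, 0.28 to 0.36 log2 for LINC00938 and 0.18 to 0.24 log2 for LINC00461. After knockdown LINC00052 and LINC00467 kept their calls in every such fit, and LINC00639 in the 3 that tested it. The Radioresistant calls of this group were lost for LINC00052 without Control replicate 2 (limma adjusted p = 0.0583) and for LINC00938 without Radioresistant replicate 2 (0.0777) or 3 (0.0519). Of the members lower in both comparisons, LINC01116 lost its Radioresistant call without Radioresistant replicate 1 (limma adjusted p = 0.129) or 2 (0.0549) or Control replicate 1 (0.0782) or 2 (0.0982). LINC01270 lost it without Radioresistant replicate 3 (limma adjusted p = 0.12) or Control replicate 2 (0.11), and LINC01000 without any 1 Radioresistant library (0.0735, 0.0529 and 0.146) or Control replicate 2 (0.157). LINC01534, higher in both, lost its Radioresistant call without Radioresistant replicate 1 (limma adjusted p = 0.0604).

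**Figure D4:**
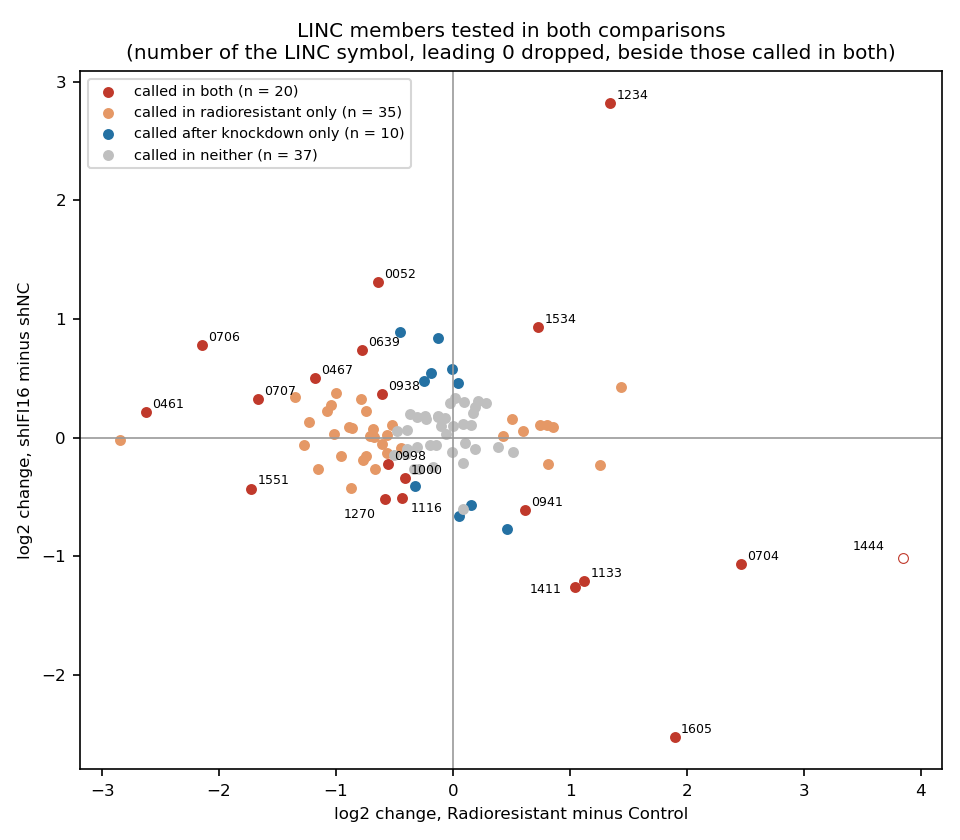
Log2 difference of the 102 members tested in both comparisons, Radioresistant minus Control along the horizontal axis and shIFI16 minus shNC along the vertical axis; colour gives where a member was called, and numbers name the 20 called in both; LINC01444 (open circle) is listed at 0 in Control, so its horizontal place depends on the pseudocount. The 6 members at lower right (LINC00704, LINC00941, LINC01133, LINC01411, LINC01444, LINC01605) were higher in Radioresistant and lower with shIFI16, while LINC01234 stands highest at upper right.

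Levels in the hairpin cells and in the Radioresistant cells without a hairpin come from tables normalized separately, and differences between them were not tested. The members given here were chosen after their values were seen. Among those called in both comparisons, LINC00052 averaged 9.63 TPM in Radioresistant libraries, 0.979 TPM with shNC and 3.97 TPM with shIFI16. LINC00639 averaged 8.62, 0.680 and 1.80 TPM in the same order, and LINC01234 4.72, 0.366 and 8.69 TPM. LINC01133 averaged 1.76, 13.1 and 5.10 TPM, while LINC00706 lay close, at 1.90 TPM in Radioresistant libraries and 1.87 TPM with shNC. LINC00152 averaged 178 TPM with shNC and 189 TPM in Radioresistant libraries, and LINC00116 22.9 TPM with shNC and 22.4 TPM in Radioresistant libraries. LINC00460 averaged 66.1 ± 4.80 TPM with shIFI16 and 67.1 ± 4.84 TPM with shNC, against 14.3 ± 3.26 TPM in Radioresistant libraries (SD, n = 3 each). LINC01605 averaged 19.7 ± 1.42 TPM with shNC and 3.54 ± 1.11 TPM in Radioresistant libraries. LINC00961 was at 1.63 ± 0.147 TPM with shNC and 8.84 ± 1.20 TPM in Radioresistant libraries.

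Some members are neighbours of each other. Within 50000 bases of each other lay 9 pairs formed by 15 members. In Radioresistant against Control cells both members were tested in all 9 pairs, and 5 pairs had differences of the same sign. Both members of 2 pairs were called, LINC00706 with LINC00707 and LINC01443 with LINC01444, each the same way. Of all genes tested 43.9% were called there. After knockdown both members were tested in 6 pairs, all 6 with the same sign. Both were called in 3 pairs, again the same way: LINC00706 with LINC00707 higher, and LINC01116 with LINC01117 and LINC01270 with LINC01272 lower. Of all genes tested 32.9% were called after knockdown. Whether pairs agree more often than unrelated genes was not tested. LINC01116 and LINC01117, 144 bases apart on opposite strands of chromosome 2, were at -0.51 log2 and -0.66 log2 (limma adjusted p = 0.00252 and 0.00818). With the replicate number as a block, LINC01117 and LINC00706 missed the threshold after knockdown (limma adjusted p = 0.0914 and 0.0895). For LINC01270 (-0.52 log2, limma adjusted p = 0.0166) the call was lost without shIFI16 replicate 1 (0.0601) or shNC replicate 2 (0.0575). Overlapping and abutting RNAs can share reads where strand is not used, so these pairs are not independent.

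The start of the nearest listed protein-coding gene lay a median of 53017 bases from that of the member, over 114 members with an annotated start, and within 1000 bases for 15 of them. In Radioresistant against Control cells 73 members had a tested neighbour. Member and neighbour were both called in 24 pairs, and in 15 of these they moved the same way. Both were lower in 12 of the 15. Among all genes tested 16.9% were higher and 27.0% lower, so unrelated genes would often agree as well. Whether 15 of 24 exceeds such agreement was not tested. Of the 24, only 2 were divergent pairs within 5000 bases, and both moved in opposite ways: LINC00894 fell (-0.53 log2) beside a higher EOLA2 (0.42 log2), and LINC01137 (LITATS1) fell (-0.67 log2) beside a higher ZC3H12A (0.55 log2), an RNase of inflammation whose start is 137 bases away. Without Radioresistant replicate 1 or 3 LINC00894 was no longer called (limma adjusted p = 0.0806 and 0.0541), and LINC01137 was not without Radioresistant replicate 2 or 3 (limma adjusted p = 0.0608 and 0.0968). After knockdown 62 members had a tested neighbour. The only divergent pair within 5000 bases with both called, LINC01534 with ZNF567, moved the same way. Of the 53 other pairs both were called in 4, and 3 of these moved the same way. For 7 higher and 6 lower members the neighbour was not called, so the neighbours named above are not typical of the set.

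Annotated starts were then set beside open chromatin. A deposited ATAC-seq summit lay within 1000 bases of a start for 25 of 114 members in the radioresistant library and for 4 of 114 in the control library. Among all 27303 RefSeq genes with a start the shares were 19.1% and 3.57%, so members stood near the background in both. Within 500 bases the counts were the same, 25 and 4 (17.1% and 3.14% of all genes), and within 5000 bases 32 and 4 (23.1% and 4.29%). Summits with a score of at least 10 lay at 2 members in the radioresistant library and at 0 in the control library (1.13% and 0.0256% of all genes). The radioresistant library has 12877 summits and the control library 2454, and with 1 library per condition there is no test of the difference. LINC00346, LINC00601, LINC00662 and LINC00938 had a summit in both libraries, 21 members in the radioresistant library only, and none in the control library only. By RNA call, a radioresistant summit was present for 3 of 17 members higher in Radioresistant cells, 8 of 35 lower, 13 of 44 tested but not called and 1 of 18 not tested. The summit scores at members, the authors' -log10 q, were highest for LINC00346 (11.3), LINC01563 (10.7) and LINC00888 (9.95), all in the radioresistant library.

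**Figure D5:**
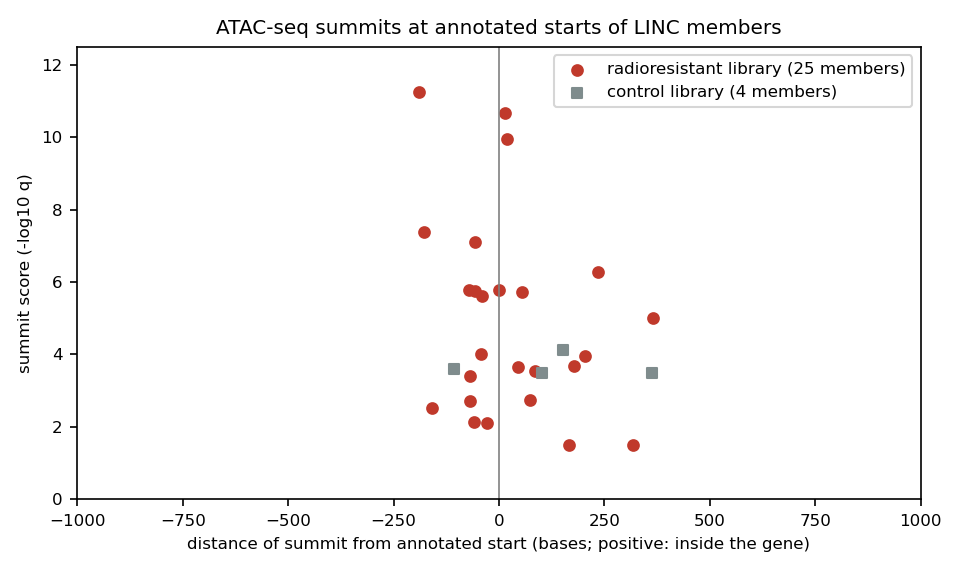
Score of each ATAC-seq summit within 1000 bases of an annotated start of a member against its distance from that start, for the radioresistant library (red circles, 25 members) and the control library (grey squares, 4 members). All lie within 365 bases of the start, and the control summits score between 3.47 and 4.11.

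Promoter windows of 300 bases (250 before the start to 50 after it) were available for 129 starts of the members. Their median GC content was 58.0% with 14 CpG dinucleotides, between other long non-coding RNA starts (50%, 5 CpG) and protein-coding starts (62.3%, 21 CpG). The AP-1 motif TGANTCA, searched on both strands, was found in 18 of 129 member windows (14.0%) and in 7.70% of all 35085 windows. The interferon-stimulated response element (ISRE) was found in 4 (3.10%, against 3.58%) and the TATA motif TATAAA in 15 (11.6%, against 11.5%). None of the 3 motifs contains another, and a match is a description of the letters only. Members with the AP-1 letters and a call in Radioresistant cells were LINC00460, LINC00704, LINC01411, LINC01443, LINC00152, LINC00601, LINC00346, LINC00963 and LINC01518. Those with the letters and no call there, tested or not, were LINC00339, LINC00618, LINC00702, LINC01001, LINC01061, LINC01271, LINC01351, LINC01358 and LINC01468. LINC00618, LINC00702 and LINC01358 were among the members not tested there. For scale, 43.9% of all genes tested were called in Radioresistant cells, and of tested members 17.5% were higher and 35.7% lower. A link between the letters and the calls was not tested.

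From RefSeq, 6 windows are shown on GRCh38.p14, each read 5′ to 3′ on the strand of the RNA, with motif matches in capitals. LINC00460 is shown for the largest fall in Radioresistant cells, LINC00704 and LINC01411 because both were higher in Radioresistant cells and lower with shIFI16, and LINC01234 because it rose in both comparisons and holds none of the 3 motifs. LINC00601 and LINC00346 are shown for their summits in both ATAC-seq libraries.
LINC00460, chr13:106376314-106376613, plus strand: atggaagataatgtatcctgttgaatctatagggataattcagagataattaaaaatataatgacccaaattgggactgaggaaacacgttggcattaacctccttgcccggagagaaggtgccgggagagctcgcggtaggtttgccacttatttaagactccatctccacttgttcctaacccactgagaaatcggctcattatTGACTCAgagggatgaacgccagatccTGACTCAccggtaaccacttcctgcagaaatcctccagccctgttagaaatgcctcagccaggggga
LINC00704, chr10:4678021-4678320, minus strand: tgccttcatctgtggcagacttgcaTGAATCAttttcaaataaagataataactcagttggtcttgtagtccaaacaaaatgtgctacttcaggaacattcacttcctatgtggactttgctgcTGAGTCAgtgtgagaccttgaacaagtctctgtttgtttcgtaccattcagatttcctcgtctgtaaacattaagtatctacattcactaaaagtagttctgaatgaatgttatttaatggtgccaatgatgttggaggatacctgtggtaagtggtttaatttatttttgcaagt
LINC01411, chr5:174336104-174336403, plus strand: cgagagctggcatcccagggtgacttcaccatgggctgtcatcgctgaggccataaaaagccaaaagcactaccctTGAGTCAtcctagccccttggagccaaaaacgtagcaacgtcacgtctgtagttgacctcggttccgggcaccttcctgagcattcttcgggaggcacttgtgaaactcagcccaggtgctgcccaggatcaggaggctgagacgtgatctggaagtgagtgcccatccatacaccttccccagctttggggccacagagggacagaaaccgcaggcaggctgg
LINC01234, chr12:113773634-113773933, minus strand: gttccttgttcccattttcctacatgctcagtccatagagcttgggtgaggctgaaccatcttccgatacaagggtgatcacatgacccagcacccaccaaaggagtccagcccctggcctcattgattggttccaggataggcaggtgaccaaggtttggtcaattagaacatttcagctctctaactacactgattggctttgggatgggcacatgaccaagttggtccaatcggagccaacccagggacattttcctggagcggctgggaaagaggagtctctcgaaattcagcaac
LINC00601, chr10:126421830-126422129, minus strand: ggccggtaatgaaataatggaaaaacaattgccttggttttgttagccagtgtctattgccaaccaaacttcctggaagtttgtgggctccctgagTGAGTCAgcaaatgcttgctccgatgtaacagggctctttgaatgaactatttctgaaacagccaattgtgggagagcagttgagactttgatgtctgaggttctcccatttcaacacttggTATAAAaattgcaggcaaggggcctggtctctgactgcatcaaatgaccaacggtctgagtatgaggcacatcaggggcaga
LINC00346, chr13:110870259-110870558, minus strand: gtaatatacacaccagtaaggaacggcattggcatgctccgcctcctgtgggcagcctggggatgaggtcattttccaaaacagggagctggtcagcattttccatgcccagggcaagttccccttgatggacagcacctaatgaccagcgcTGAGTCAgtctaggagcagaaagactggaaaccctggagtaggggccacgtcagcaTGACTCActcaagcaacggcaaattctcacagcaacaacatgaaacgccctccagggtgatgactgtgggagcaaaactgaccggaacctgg
LINC00601 rose in Radioresistant cells (21.2, 23.2 and 18.3 TPM, against 12.7, 11.7 and 9.02 TPM in Control libraries; limma adjusted p = 0.00134), with a summit 68 bases before the start in the radioresistant library and 106 bases before it in the control library. LINC00346 (PRECSIT) had 5.55, 5.55 and 4.76 TPM in Radioresistant libraries and 8.39, 7.14 and 7.10 TPM in Control libraries (-0.44 log2, limma adjusted p = 0.0264). Its summit lay 190 bases before the start in the radioresistant library, inside the window, and 151 bases after it in the control library. The LINC00346 call was lost with any 1 library left out except Control replicate 3, at limma adjusted p of 0.0584, 0.0532 and 0.0902 without Radioresistant replicates 1, 2 and 3, and 0.106 and 0.0699 without Control replicates 1 and 2.

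Long non-coding RNAs with other names give the setting. Of 39 tested from a list of 60, 12 were higher and 12 lower in Radioresistant cells, with a median of 0.08 log2. UCA1, described as raised in carcinomas, was higher by 2.52 log2 (limma adjusted p = 2.33e-06). Its mean was 5.10 TPM in Radioresistant libraries and 0.0495 TPM in Control libraries, so the size of that difference depends on the pseudocount. SOX2-OT, which spans the stem-cell gene SOX2, was lower by -3.46 log2 (limma adjusted p = 4.23e-07). After knockdown 7 of 38 were higher and 6 lower; UCA1 was at -0.86 log2 (limma adjusted p = 0.00129) and SOX2-OT at 0.69 log2 (limma adjusted p = 4.94e-06). Rows named as antisense RNAs had 38 higher and 86 lower of 283 tested in Radioresistant cells (median -0.26 log2). After knockdown they had 40 higher and 17 lower of 258 (median 0.13 log2). Among all genes tested 16.9% were higher and 27.0% lower in Radioresistant cells, and 16.6% and 16.3% after knockdown. A lean to lower in Radioresistant cells was thus seen in members, in antisense rows and in all genes tested. With median-ratio scaling all genes tested had 2976 higher and 2926 lower. The antisense rows were counted only with the TPM as deposited. The summed level of 9 glial and glioblastoma markers ran from 6636 to 7216 TPM in Radioresistant libraries and from 15116 to 15361 TPM in Control libraries. Most of it was VIM (means of 5640 and 8822 TPM) and, in Control libraries, GFAP (80.6 and 4011 TPM). Of 8 tested markers 7 were lower, and EGFR was not called (0.26 log2, limma adjusted p = 0.135). After knockdown 3 of 7 tested were higher and 2 lower, with GFAP at 3.56 log2 and VIM at -0.49 log2. The part of these markers in the members' results was not tested.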

How the data were processed

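RNA-seq values came from 2 deposited tables of 24489 genes each, 6 libraries to a table. The authors deposited TPM, not counts: each column sums to 1000000 and values are not whole, so sequencing depth is unknown. The submitters' processing notes name Trim Galore 0.6.6, TopHat, Cufflinks 2.2.1, featureCounts and the build hg38; which of them gave the TPM, and whether strand was used, is not given in the sources used here. RNA was extracted with Trizol and made into NEBNext mRNA libraries, per the labels' protocols. Column codes were read as groups by the description that names each table and by the codes of the ATAC-seq pair. ATAC-seq summits with a -log10 q score were deposited by the authors for 1 radioresistant and 1 control library; Bowtie2 2.2.5, SAMtools 1.10 and MACS2 2.1.4 are named in the submitters' processing notes.

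Members and lists were chosen with earlier results of these data known. R 4.3.3 and limma 3.58.1 were used to fit each comparison inside its own table. Values entered as log2(TPM + 1), the variance prior was trended and robust, and a gene was tested when 3 or more of its 6 libraries had 1 TPM or more. p-values were adjusted by Benjamini-Hochberg over all genes tested, and a call is an adjusted p under 0.05. The pseudocount of 1 understates changes of low genes. The fit was tested on simulated data. Each table held 28 entries named like dates, which were left out. Named members are, per comparison, up to 15 rises and 15 falls past the threshold by size, the 10 highest members, those within 10% of the 1 TPM limit, members of the listed RNAs with small proteins, small RNAs or tumour roles, and nearest coding neighbours. LINC00106, LINC00235, LINC01315, LINC00888, LINC00894 and LINC01137 (with EOLA2 and ZC3H12A), LINC01023, UCA1 and SOX2-OT were singled out after their values were seen. The ISRE was searched as GAAA, any 2 bases, then GAAA. Positions, starts, promoters and microRNAs are from RefSeq GRCh38.p14; 114 members matched by symbol and 36 by an older symbol. Tried as alternatives were a pseudocount of 0.1, a 0.5 TPM filter and no filter, 2 other scalings, a plain variance prior, the replicate number as a block, each library left out, members by their mean over 12 libraries, summit distances of 500 and 5000 bases and a summit score of at least 10.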

Additional observations from a re-analysis of the deposited data

How the results depend on the processing

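None of the 67 members called in Radioresistant against Control cells and none of the 31 called after knockdown changed sign under the alternatives tried, which for members outside the naming rule were added after seeing the data. The number of members higher in Radioresistant than in Control cells was 11 to 23, and of lower ones 34 to 42, with 1 library left out under the same filter; the low counts of 11, 13 and 14 came without Radioresistant replicates 1, 2 and 3. With the filter eased to 2 of the 5 remaining libraries, an alternative chosen after seeing the data, the counts were 18 to 23 higher and 38 to 53 lower, so fewer genes tested gave part of that drop. After knockdown the counts with a library left out were 8 to 13 higher (8 without shIFI16 replicate 2) and 12 to 17 lower, and with the eased filter 10 to 16 higher and 13 to 20 lower. All-gene calls ran from 3875 to 7138 in Radioresistant cells, against 5762, and from 2888 to 4086 after knockdown, against 4140, with a library left out.

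Replicate numbers did not pair the samples: same-numbered libraries correlated in their deviations at -0.377, 0.245 and 0.081 between Radioresistant and Control and at 0.215, 0.088 and 0.028 between shIFI16 and shNC, and not every library matched its own number best. With the replicate number as a block, 21 members were higher and 45 lower in Radioresistant cells (5572 genes called), LINC00839 and LINC01000 missing the threshold at limma adjusted p of 0.0593 and 0.0508, and 19 were higher and 18 lower after knockdown (5610 genes called); LINC00706, LINC01117, LINC01534 and LINC01605 then missed the threshold after knockdown at limma adjusted p of 0.0895, 0.0914, 0.178 and 0.0914. Summits with a score of at least 10 lay at 2 members in the radioresistant library and 0 in the control library, against 25 and 4. TPM carry no depth, so no interval on counting error can be given, and low members near 1 TPM are the least certain.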
